A study of Mus musculus with 10 samples.

Results

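Slc16a1, Slc16a3, Bsg, Slc2a1, Slc2a3, Ldha, Ldhb, Pdk1 and Pdk4 carry glucose into the cell, convert pyruvate and lactate into each other, carry lactate across the membrane, or set how much pyruvate the mitochondria burn. They were picked by gene symbol as 9 of the 48476 genes in the expression table of the series, with earlier results of the same libraries known. Their differences between the arms are therefore given as a description, with no test. All 9 averaged at least 1 TPM (RSEM's length-normalized transcript abundance) over the libraries, as did 15011 genes in all, which served as the background.

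Mouse embryonic fibroblasts (MEFs) from E13.5 embryos of the strain CBA/CaJ X C57BL/6J were reprogrammed towards pluripotency by Oct4, Klf4 and Sox2 (OKS) delivered in PlatE-packaged retrovirus, in iCD1 medium. The control arm, OKS + DR, received the red fluorescent protein DsRed in addition, and the second arm, OKS + FoxO6, received the forkhead factor FoxO6, so the cells of both arms carried OKS. Every arm gave a single library on each of days 0, 1, 3, 5 and 7, and nothing in the labels says whether the 5 days of an arm were separate cultures. The question was how added FoxO6 acts on reprogramming, and the methods describe MEFs that report Oct4 by GFP.

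Expected counts per library ranged from 1208379 to 2225750 (median 1601151) over the 10 libraries, so genes of a few TPM rested on a handful of reads. Foxo6 itself lay between 0.61 and 2.29 TPM in the 5 OKS + DR libraries and between 762 and 1356 TPM in the 5 OKS + FoxO6 libraries, including day 0. The 8 fibroblast markers summed to 7539 TPM at day 0 and 2297 TPM at day 7 in OKS + DR, and to 6398 and 2470 TPM in OKS + FoxO6. Vim weighed most in these sums, at 1490 to 3636 TPM over the 10 libraries. Other markers spanned wider relative ranges, such as Col1a1 (64.85 to 1354), Thy1 (17.3 to 347), Postn (4.09 to 142), Twist2 (2.23 to 78.5) and Pdgfrb (1.54 to 34.9). All samples were bulk cultures, in which fewer cells of a type and less RNA per cell cannot be told apart.

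Glucose enters most cells through facilitative carriers of the GLUT family, of which GLUT1 (Slc2a1) serves proliferating fibroblasts and GLUT3 (Slc2a3) is a high affinity form. Lactate dehydrogenase is built of LDHA and LDHB subunits and interconverts pyruvate and lactate, which then crosses the membrane on MCT1 (Slc16a1) or MCT4 (Slc16a3), both escorted to the surface by basigin (Bsg). Pyruvate dehydrogenase kinases such as PDK1 and PDK4 switch off the enzyme that commits pyruvate to the mitochondria. Slc2a1, Ldha, Pdk1 and Slc16a3 are classical targets of hypoxia inducible factor, Pdk4 is a classical target of FoxO factors, and a move from respiration to glycolysis is a known feature of reprogramming.

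The DNA before the RefSeq start sites of these genes is shown because it holds the letters that hypoxia inducible factor reads, ACGTG and GCGTG, searched on both strands and set in capitals. The sequences come from the RefSeq start-site table for GRCm38.p6, which matched 7 of the 9 genes and 9 start sites. They run 5′ to 3′ along the gene and stop at the base before the start site, or earlier, after the last match, where a GENCODE exon began (Slc16a3 and Slc2a1). The windows of Ldha and Slc16a3 lie inside the GENCODE gene, past the start of its longest extent. The bases just after the printed Ldha start site were in no GENCODE transcript of the gene, and those after the other 8 start sites were.
Slc2a1, chr4:119108495-119108713, plus strand: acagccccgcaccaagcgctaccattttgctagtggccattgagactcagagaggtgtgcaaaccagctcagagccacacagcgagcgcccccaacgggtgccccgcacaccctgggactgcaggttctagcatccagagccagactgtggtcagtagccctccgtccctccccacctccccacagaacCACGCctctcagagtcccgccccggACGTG
Ldha, chr7:46845554-46845803, plus strand: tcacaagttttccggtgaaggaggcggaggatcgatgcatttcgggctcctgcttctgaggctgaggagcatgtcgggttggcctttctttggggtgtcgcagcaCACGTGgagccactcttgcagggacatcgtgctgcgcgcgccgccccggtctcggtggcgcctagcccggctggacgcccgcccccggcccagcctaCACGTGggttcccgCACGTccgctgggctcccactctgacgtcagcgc
Pdk1, chr2:71872974-71873223, plus strand: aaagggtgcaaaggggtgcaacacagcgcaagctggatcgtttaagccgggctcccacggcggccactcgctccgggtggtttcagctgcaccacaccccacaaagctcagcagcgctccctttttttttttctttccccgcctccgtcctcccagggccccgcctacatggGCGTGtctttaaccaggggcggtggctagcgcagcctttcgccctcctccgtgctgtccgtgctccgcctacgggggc
Slc16a3, chr11:120948817-120949057, plus strand: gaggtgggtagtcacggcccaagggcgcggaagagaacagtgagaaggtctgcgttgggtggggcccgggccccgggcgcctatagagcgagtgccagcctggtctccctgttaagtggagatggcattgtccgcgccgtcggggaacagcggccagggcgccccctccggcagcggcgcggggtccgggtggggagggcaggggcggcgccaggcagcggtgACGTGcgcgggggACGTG
Slc16a1, chr3:104638414-104638663, plus strand: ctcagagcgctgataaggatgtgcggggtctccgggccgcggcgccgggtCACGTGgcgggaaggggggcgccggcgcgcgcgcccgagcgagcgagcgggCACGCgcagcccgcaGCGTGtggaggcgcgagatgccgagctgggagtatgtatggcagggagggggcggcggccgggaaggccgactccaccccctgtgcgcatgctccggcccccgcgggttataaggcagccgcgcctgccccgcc
The first 4 of these genes were highest in OKS + DR day 7, and Slc16a1, which was not, is printed for contrast. Slc16a3 had 2 matches, the first bases lying 27 and 14 bases before the start site, and Slc2a1 had 2, at 61 and 36 bases. All 5 bases of the nearer Slc16a3 match and 3 bases of the nearer Slc2a1 match lay in a GENCODE exon of the gene. Pdk1 had 1 match at 78 bases, and the printed Ldha window had 5, of which 4 lay in 2 copies of CACGTG, where ACGTG reads on both strands and which is also the E-box read by Myc. Slc16a1 had 4 matches, 2 of them in 1 CACGTG. Ldhb and Pdk4 had 1 match each. A second RefSeq start site of Ldha had 1 match, 59 bases before it, and that of Pdk1 had 0. Of all 32817 start sites in the table, 38.6% held ACGTG or GCGTG in the same 250 bases and 6.02% held CACGTG. The 5 windows printed here were 64% to 76.4% G or C over their 250 bases, and the other windows 38.4% to 58.8%. The share of all start sites was not matched for this content, so an excess of the letters in these genes was not tested. The letters GTAAACA, a core site of forkhead factors, were in 3.16% of all start sites on either strand and in none of the 9 windows of these genes. A match is a string of letters and was not measured as a bound site.

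Slc2a1 (ENSMUSG00000028645, chr4:119108711-119137983 of GRCm38, plus strand), the basal glucose carrier, separated the arms late. From day 0 to day 7 the OKS + DR libraries held 49.9, 38.4, 47.5, 197 and 536 TPM. The OKS + FoxO6 libraries held 85.8, 41.6, 51.5, 57.1 and 79.8 TPM. The arms lay close together on days 1 and 3, OKS + FoxO6 was the higher at day 0, and OKS + DR stood far above at days 5 and 7. The difference, OKS + FoxO6 minus OKS + DR in log2(TPM + 1), was 0.77, 0.11, 0.11, -1.77 and -2.73 in the order of the days. Scaled to library size (CPM, with TMM factors), OKS + DR held 6.88 times as much as OKS + FoxO6 at day 7, with a 95% exact binomial interval of 5.91 to 8.05. Such intervals cover the counting of reads only and not the spread between cultures, which 1 library per arm and day cannot give. From day 0 to day 7 the CPM of OKS + DR changed 9.25-fold (7.57 to 11.4) and that of OKS + FoxO6 1.00-fold (0.826 to 1.21). Slc2a1 overlaps the antisense genes Gm12867 and Gm12868, and whether the counting used strand is not given in the sources used here.

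Slc2a3 (ENSMUSG00000003153, chr6:122727809-122801640, minus strand), the high affinity glucose carrier, was lower with FoxO6 from the start. OKS + DR gave 28.8, 30.9, 29.8, 46.1 and 182 TPM at days 0, 1, 3, 5 and 7. OKS + FoxO6 gave 14.4, 10.6, 10.03, 8.08 and 19.2 TPM. No library of OKS + FoxO6 reached the lowest of OKS + DR, and the step between days 5 and 7 was smaller in OKS + FoxO6 in TPM. The log2 difference went from -0.95 at day 0 through -1.46, -1.48 and -2.37 to -3.18 at day 7, where OKS + DR held 8.68 times the CPM (6.75 to 11.3).

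Of the TPM that the pair of glucose carriers summed to, Slc2a1 made up 63.4%, 55.4%, 61.4%, 81.1% and 74.7% from day 0 to day 7 in OKS + DR. In OKS + FoxO6 the share was 85.7%, 79.7%, 83.7%, 87.6% and 80.6%. GLUT1 was thus the larger message in every library, and GLUT3 held a larger part in OKS + DR than in OKS + FoxO6 on each of the 5 days.

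**Figure D1:**
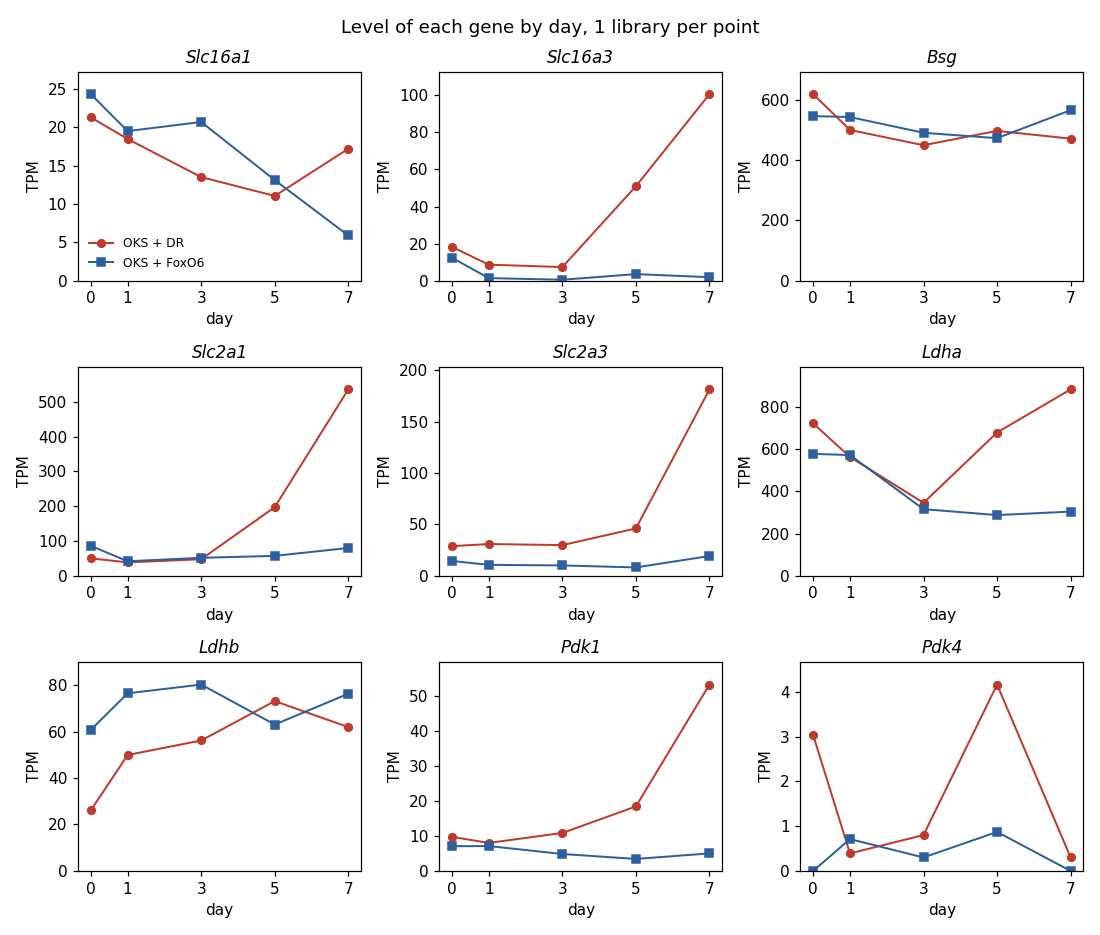
TPM of each of the 9 genes (vertical axes, each from 0) against day (horizontal axes), with 1 library per point, OKS + DR as red circles and OKS + FoxO6 as blue squares. Slc2a1, Slc2a3, Slc16a3 and Pdk1 were higher in OKS + DR than in OKS + FoxO6 at days 5 and 7, Bsg stayed between 449 and 619 TPM in all 10 libraries, and the points of Pdk4 rest on 0 to 3 counts.

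Ldha (ENSMUSG00000063229, chr7:46841475-46855627, plus strand), the subunit that favours lactate formation, was lower at day 3 than at day 0 in both arms, and the arms parted after that. In OKS + DR it stood at 722, 563, 345, 679 and 883 TPM, and in OKS + FoxO6 at 577, 572, 315, 287 and 304 TPM. OKS + DR was back near its day 0 level at day 5 and above it at day 7, while OKS + FoxO6 remained near its lowest level. The log2 differences were -0.32, 0.02, -0.13, -1.24 and -1.54 from day 0 to day 7, and OKS + DR held 2.66 times the CPM at day 7 (2.38 to 2.98). Between day 0 and day 7 the CPM of Ldha changed 1.13-fold (1.03 to 1.24) in OKS + DR and 0.587-fold (0.521 to 0.659) in OKS + FoxO6. The pseudogenes Ldha-ps and Ldha-ps2 took at most 1 expected count in any library, and Ldha pseudogenes under other names were not searched.

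Ldhb (ENSMUSG00000030246, chr6:142490249-142507957, minus strand), the subunit that favours lactate use, did not follow Ldha. It was measured at 26.2, 49.9, 56.2, 73.2 and 62.0 TPM in OKS + DR, and at 60.8, 76.5, 80.3, 63.1 and 76.4 TPM in OKS + FoxO6. The lowest library was OKS + DR day 0, and the TPM of the arms differed by less from day 5 on than at day 0. The difference was 1.19 in log2(TPM + 1) at day 0, then 0.61, 0.51 and -0.21, and 0.30 at day 7. The CPM of OKS + FoxO6 was 2.02 times that of OKS + DR at day 0 (1.24 to 3.45), 1.29 on day 1 (0.870 to 1.94), 1.16 on day 3 (0.808 to 1.69), 1.03 on day 5 (0.711 to 1.51) and 1.496 on day 7 (1.07 to 2.09). Day 0 was also the point with the fewest reads, 21 in OKS + DR against 80 in OKS + FoxO6. Ldha made up 96.5%, 91.8%, 86.0%, 90.3% and 93.4% of the summed TPM of both subunits in OKS + DR, and 90.5%, 88.2%, 79.7%, 82.0% and 79.9% in OKS + FoxO6. Ldha was the main message everywhere, and its share was higher in OKS + DR on all 5 days. The remaining lactate dehydrogenase genes, Ldhc, Ldhd and Ldhal6b, had too few counts to be tested.

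Slc16a3 (ENSMUSG00000025161, chr11:120948480-120960868, plus strand), the lactate exporter MCT4, showed the widest gap. In OKS + DR it gave 18.2, 8.59, 7.29, 51.0 and 101 TPM from 21, 9, 11, 74 and 207 counts. In OKS + FoxO6 it gave 12.3, 1.33, 0.44, 3.48 and 1.81 TPM from 36, 1, 1, 3 and 1 counts. The arms overlapped in level only through day 0 of OKS + FoxO6, and after that day MCT4 was barely detectable with FoxO6. The CPM ratio of OKS + DR over OKS + FoxO6 was 1.10 at the start (0.609 to 1.93), 9.90 on day 1 (1.37 to 434), 14.8 on day 3 (2.16 to 639), 37.6 on day 5 (12.4 to 187) and 173 on day 7 (30.7 to 6863). The intervals are wide because the lower side is 1 to 3 counts, and at this depth the size of the ratio is loosely bound. In log2(TPM + 1) the difference widened from -0.53 at day 0 to -5.18 at day 7. The effective length that RSEM gave Slc16a3 ranged from 616 to 2652 bases between libraries, so its TPM and CPM ratios differ.

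Slc16a1 (ENSMUSG00000032902, chr3:104638668-104658462, plus strand), the bidirectional lactate carrier MCT1, took another course. It stood at 21.3, 18.5, 13.5, 11.04 and 17.2 TPM in OKS + DR and at 24.3, 19.5, 20.7, 13.1 and 5.88 TPM in OKS + FoxO6. OKS + FoxO6 was the higher arm through day 5 and the lower one at day 7, where 23 counts faced 73. The log2 difference was 0.18, 0.07, 0.58, 0.23 and -1.40 on the 5 days, and the CPM of OKS + DR at day 7 was 2.65 times that of OKS + FoxO6 (1.64 to 4.44). With a trend against transcript length removed from the day 7 differences, that of Slc16a1 was -0.98, just under the 2-fold mark. Within OKS + FoxO6 the CPM of Slc16a1 at day 7 was 0.271 of its day 0 value (0.165 to 0.426). MCT4 made up 46.0%, 31.7%, 35.1%, 82.2% and 85.4% of the summed TPM of both carriers in OKS + DR and 33.6%, 6.39%, 2.08%, 21.0% and 23.5% in OKS + FoxO6. MCT4 was therefore the larger of the pair in OKS + DR at days 5 and 7, and MCT1 in the other 8 libraries.

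**Figure D2:**
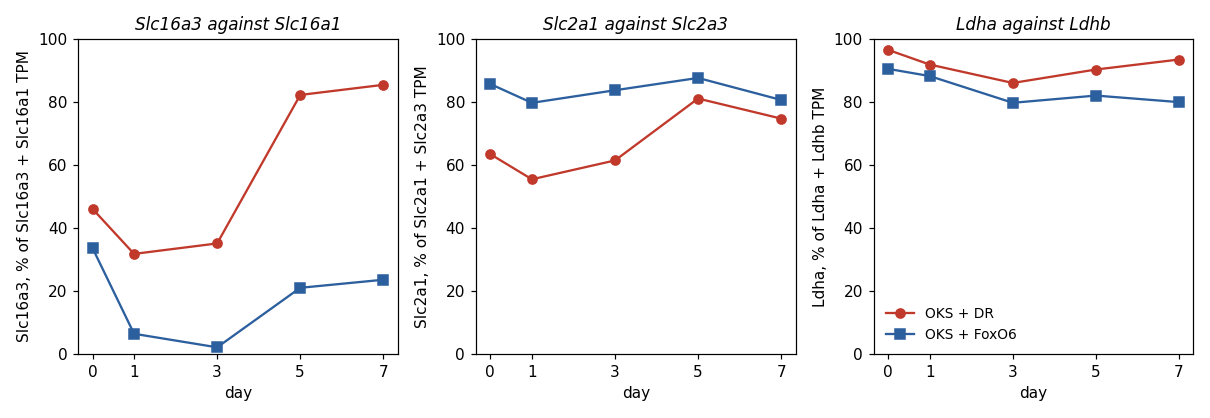
Share of Slc16a3 in Slc16a3 + Slc16a1, of Slc2a1 in Slc2a1 + Slc2a3 and of Ldha in Ldha + Ldhb, as a percentage of the summed TPM (vertical axes, 0 to 100) against day, for OKS + DR (red circles) and OKS + FoxO6 (blue squares), 1 library per point. The Slc16a3 share reached 85.4% in OKS + DR and 23.5% in OKS + FoxO6 at day 7, the latter from 1 count of Slc16a3.

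Bsg (ENSMUSG00000023175, chr10:79704491-79711969, plus strand), the chaperone of both carriers, was abundant and varied little. Its TPM was 619, 500, 449, 497 and 471 in OKS + DR and 546, 543, 491, 473 and 566 in OKS + FoxO6. The arms overlapped throughout, and the log2 differences of -0.18, 0.12, 0.13, -0.07 and 0.26 had no common direction. At day 7 the CPM of OKS + FoxO6 was 1.32 times that of OKS + DR (1.17 to 1.48), and at day 0 it was 0.801 times (0.713 to 0.901). Within OKS + DR the CPM of Bsg at day 7 was 0.701 of its day 0 value (0.619 to 0.794), and within OKS + FoxO6 1.15 (1.03 to 1.29). Over the same 10 libraries the message of MCT4, which it escorts, spanned 0.44 to 101 TPM.

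Pdk1 (ENSMUSG00000006494, chr2:71873224-71903858, plus strand), a brake on pyruvate oxidation, went with the glucose carriers. OKS + DR held 9.75, 8.01, 10.9, 18.5 and 53.4 TPM of it and OKS + FoxO6 7.07, 7.11, 4.84, 3.42 and 5.01 TPM. All 5 TPM values with FoxO6 were below all 5 without it, but in CPM day 7 with FoxO6 (14.8) was above day 3 of OKS + DR (14.3). The log2 differences in TPM + 1 were -0.41, -0.15, -1.02, -2.14 and -3.18. The gap at day 1 was wider in CPM, where 26 counts in OKS + DR against 10 in OKS + FoxO6 gave a ratio of 2.86 (1.33 to 6.64) beside a TPM ratio of 1.13. The CPM of OKS + DR was 4.67 times that of OKS + FoxO6 at day 5 (2.61 to 8.80) and 5.92 times at day 7 (3.81 to 9.60). The effective length of Pdk1 moved between 1709 and 5124 bases over the libraries, so the TPM ratio at day 7 was 10.6 and the log2 difference in CPM, with a prior count of 2, was -2.47.

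Pdk4 (ENSMUSG00000019577, chr6:5483351-5496309, minus strand), the kinase that FoxO factors are known to raise in fasting, was close to absent. Its reads were few, with 2, 1, 2, 1 and 1 counts in OKS + DR and 0, 2, 1, 3 and 0 counts in OKS + FoxO6. No library went above 3 counts, and at this depth a difference between the arms was not detectable. Where Pdk4 is listed past the 2-fold mark below, that rests on 0 to 3 counts and is not read as a difference. Its TPM of 4.16 in OKS + DR day 5 came from 1 count set over an effective length of 351 bases.

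At least 2-fold lower with FoxO6 in log2(TPM + 1) were 1 of the 9 genes at day 0 (Pdk4), 2 at day 1 (Slc16a3 and Slc2a3), 3 at day 3 (the same and Pdk1), 6 at day 5 and 6 at day 7. Pdk4 at day 0 held 0 counts with FoxO6 against 2 in OKS + DR, too few to tell the arms apart. The share of all 15011 genes past that fold was 6.42%, 9.45%, 11.8%, 11.4% and 16.5% on the 5 days. At least 2-fold higher were Ldhb at day 0 and none on the later days, beside 10.6%, 8.12%, 8.25%, 10.3% and 8.33% of all genes. The 6 at day 5 were Slc16a3, Slc2a1, Slc2a3, Ldha, Pdk1 and Pdk4, and at day 7 Slc16a1 took the place of Pdk4. At day 5 Pdk4 held 3 counts with FoxO6 against 1 in OKS + DR, so it was lower in TPM only and not in CPM. Since the genes were chosen with these values known, nothing is read from their number. Just inside the fold were Pdk1 at day 3 with -1.02 and Ldhb at day 0 with 1.19, and just outside was Slc2a3 at day 0 with -0.95. The median of all genes was -0.14 at day 7 in log2(TPM + 1) and -0.01 in CPM, so each TPM difference of day 7 is to be read against that median. For day 7 minus day 0 in OKS + DR the medians were 0.12 and 0.02.

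**Figure D3:**
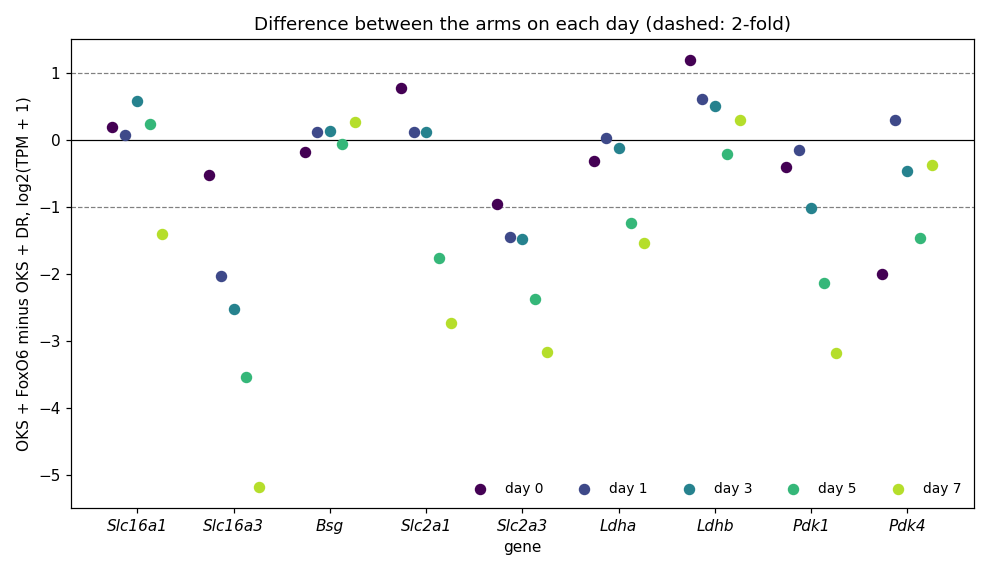
Difference OKS + FoxO6 minus OKS + DR in log2(TPM + 1) (vertical axis) for each of the 9 genes (horizontal axis), 1 point per day from dark (day 0) to light (day 7), with dashed lines at the 2-fold difference of 1 and -1. The points of Slc16a3, Slc2a3 and Pdk1 all lie below 0, and Slc16a3 reaches -5.18 at day 7.

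Within OKS + DR, Slc16a3, Slc2a1, Slc2a3, Ldhb and Pdk1 were at least 2-fold higher at day 7 than at day 0, beside 21.1% of all genes, and Pdk4 was at least 2-fold lower on 1 count against 2, beside 11.4%. Within OKS + FoxO6 none of the 9 was at least 2-fold higher at day 7, beside 14.5% of all genes, and Slc16a1 and Slc16a3 were at least 2-fold lower, beside 17.0%. OKS + DR day 7 was the highest of the 10 libraries for Slc16a3, Slc2a1, Slc2a3, Ldha and Pdk1, and for 12.5% of all genes. At that point the order by TPM was Ldha (883), Slc2a1 (536), Bsg (471), Slc2a3 (182), Slc16a3 (101), Ldhb (62.0), Pdk1 (53.4), Slc16a1 (17.2) and Pdk4 (0.30). With FoxO6 at day 7 the order was Bsg (566), Ldha (304), Slc2a1 (79.8), Ldhb (76.4), Slc2a3 (19.2), Slc16a1 (5.88), Pdk1 (5.01), Slc16a3 (1.81) and Pdk4 (0). Neighbours such as Slc2a1 and Ldhb, or Slc16a1 and Pdk1, cannot be ranked from 1 library each.

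**Figure D4:**
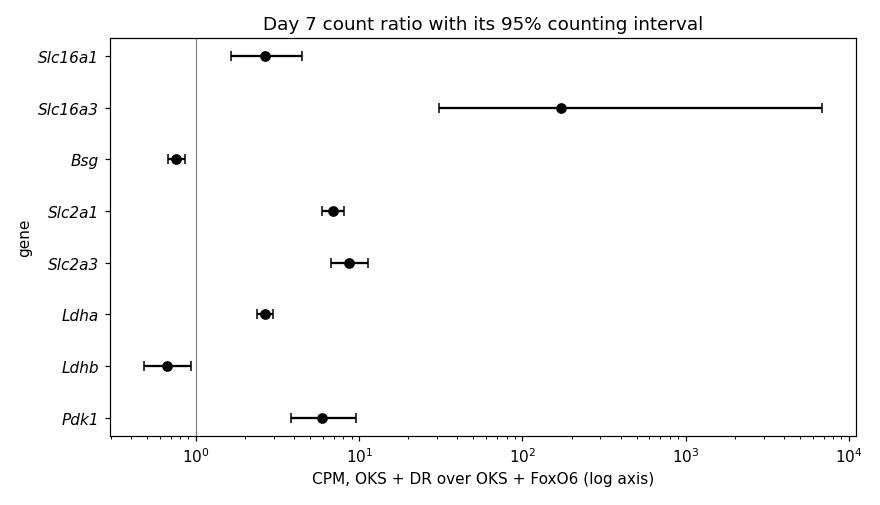
CPM of OKS + DR over OKS + FoxO6 at day 7 (horizontal log axis) for 8 genes (vertical axis), points for the ratio and bars for its 95% exact binomial interval, with a line at 1. Pdk4 is left out for its counts of 1 and 0, Bsg and Ldhb lie below 1, and Slc16a3 has a ratio of 173 with the widest interval.

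A fit over all 10 libraries with day as a factor gave 1 arm shift per gene, stated here as a log2 fold change of OKS + FoxO6 over OKS + DR with its standard error (SE) and with no test for the 9 genes. It was -3.23 ± 0.76 for Slc16a3, -2.06 ± 0.26 for Slc2a3, -1.72 ± 0.29 for Pdk1, -0.83 ± 0.41 for Slc2a1, -0.66 ± 0.20 for Ldha, -0.06 ± 0.24 for Slc16a1, 0.03 ± 0.13 for Bsg and 0.43 ± 0.18 for Ldhb. Pdk4 did not pass the filter on low counts. Without the 2 libraries of day 7 the shift of Slc2a1 was -0.33 and that of Slc16a1 0.22, and without day 0 that of Slc16a3 was -5.47. Without day 7 those of Slc16a3, Slc2a3 and Pdk1 were -2.36, -1.73 and -1.41, each also moved by more than its SE, while those of Bsg, Ldha and Ldhb moved by less. DESeq2 gave -4.06 for Slc16a3, and a fit with no day term gave -1.52 for Slc2a1 and -2.37 for Slc2a3.

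The wider pathway was described with 109 other genes in 9 lists, of which 78 were tested for an arm shift with edgeR's quasi-likelihood test and Benjamini-Hochberg adjustment over 12212 genes. With FoxO6, 8 of the 78 were higher and 11 lower, beside 6.63% and 6.89% of all genes tested, and the median shift was 0.00 against -0.02 for all genes. The p-values describe these time courses only, since days of 1 arm may share a culture. Without day 3 the counts were 5 higher and 7 lower, without day 5 they were 5 and 4, and with no day term in the fit they were 2 and 0.

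Glycolytic enzymes supply the pyruvate that LDHA reduces. Of 18 tested, 7 were lower with FoxO6 and 1 was higher, and the list's median shift was -0.42. Aldoc, an aldolase, shifted by -1.42 ± 0.30 (log2, SE; adjusted p = 0.0115 in edgeR's quasi-likelihood test) and was lower on all 5 days, with 102 TPM against 22.7 at day 7. Pfkl, the liver form of phosphofructokinase, had -0.85 ± 0.21 (adjusted p = 0.0216). The calls of both were lost without day 5 (adjusted p = 0.0904 and 0.105), and that of Aldoc also without day 7 (0.0775). Pfkfb2, which makes an activator of phosphofructokinase, was the 1 higher gene at 0.86 ± 0.22 (adjusted p = 0.0242), a call lost without day 0 (0.0506), day 3 (0.114) or day 5 (0.123).

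Among the other monocarboxylate carriers 3 of 7 were higher with FoxO6 and none lower. Slc16a10 shifted by 2.23 ± 0.40 (edgeR adjusted p = 0.00458) and Emb by 2.45 ± 0.52 (0.011), both higher with FoxO6 on all 5 days. Neither is a lactate exporter, since Slc16a10 carries aromatic amino acids and Emb encodes embigin, a relative of basigin that escorts carriers. With FoxO6 Emb went from 16.2 TPM at day 0 to 59.9 and 58.1 TPM at days 5 and 7, while OKS + DR went from 9.89 to 1.88 TPM, and its adjusted p was 0.0523 without day 5. Slc16a10 was highest at day 0 with FoxO6, at 15.8 TPM against 2.32 in OKS + DR.

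Of the other glucose carriers and their regulators 1 of 6 was higher, Slc2a12 (GLUT12), at 0.98 ± 0.25 (edgeR adjusted p = 0.0248), but not without day 3 (0.102) or day 5 (0.141). In the list of genes for pyruvate entry to mitochondria 1 of 13 was higher, another kinase of pyruvate dehydrogenase, Pdk3, at 0.62 ± 0.15 (adjusted p = 0.0178). Pdk3 lies outside the naming rule and was named after its values were seen. Its TPM was 31.0 in OKS + DR and 52.2 with FoxO6 at day 7, so this kinase and Pdk1 differed in opposite directions.

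Of 13 hypoxia targets tested 2 were lower with FoxO6 and 1 higher. Egln3, an oxygen sensing hydroxylase, had a shift of -2.45 ± 0.49 (edgeR adjusted p = 0.00866) and 126 against 6.01 TPM at day 7. Vegfa, the vascular growth factor, had -1.997 ± 0.37 (0.00596), and its TPM with FoxO6 went from 61.5 at day 0 to 18.0, 4.61, 2.97 and 6.18, beside 80.2, 61.1, 40.6, 43.4 and 80.6 in OKS + DR. Mxi1, a Myc antagonist, went the other way at 1.07 ± 0.18 (0.00315). Of the 15 hypoxia targets that averaged 1 TPM or more, 3, 1, 2, 5 and 7 were at least 2-fold lower with FoxO6 from day 0 to day 7 and 2, 1, 3, 0 and 0 at least 2-fold higher, beside 16.5% lower and 8.33% higher of all genes at day 7. Their median difference in log2(TPM + 1) was -0.05, 0.13, 0.04, -0.20 and -0.99, the last against -0.14 for all genes. Of the 7 regulators of the pathway 1 was lower, the oxygen sensor Egln1 at -0.49 ± 0.14 (adjusted p = 0.0421), and none higher, and Hif1a itself had 0.20 ± 0.14 (0.417). Egln1 and Hif1a lie outside the naming rule and were named after their values were seen.

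The FoxO and PPAR list had 1 of 9 higher, Sesn3, a sestrin that FoxO factors are known to raise, at 0.95 ± 0.15 (edgeR adjusted p = 0.0027). Of 5 genes tested in the list of the Myc family and its Mlx network 1 was lower, Mycn, at -1.87 ± 0.53 (0.0392), with 18.1 against 3 TPM at day 7 and a call lost without day 3 (0.087).

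**Figure D5:**
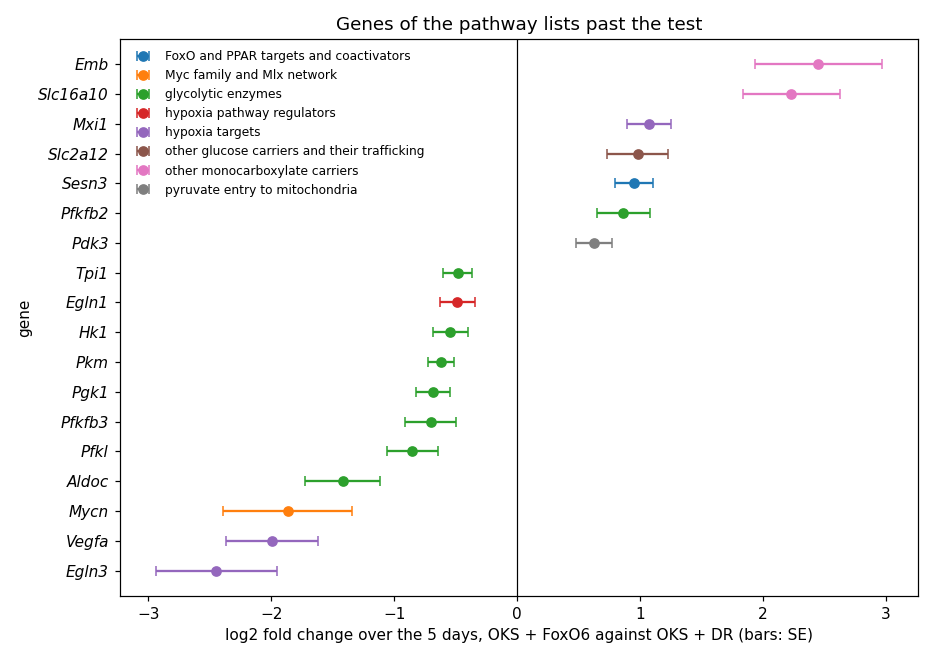
Log2 fold change over the 5 days, OKS + FoxO6 against OKS + DR (horizontal axis), with SE bars, for 18 genes of the pathway lists past the edgeR threshold (vertical axis), coloured by list. The 7 glycolytic enzymes below 0 lie opposite Slc16a10 and Emb, and the genes that the text does not name were not picked by the naming rule.

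Between day 0 and day 7, over both arms, 16 of the 78 were higher at day 7 and 8 lower by edgeR's test, beside 11.7% and 10.1% of all genes tested. Glycolytic enzymes had 5 of 18 higher and none lower, with Aldoc at 3.18 ± 0.47 (adjusted p = 0.000676) and the enolase Eno2 at 1.58 ± 0.29 (0.00243). Pcx, which turns pyruvate into oxaloacetate, had 2.89 ± 0.42 (0.000598), and Txnip, which retains glucose carriers inside the cell, 1.49 ± 0.31 (0.00542). Hypoxia targets divided, with 5 of 13 higher, among them Bnip3 at 2.75 ± 0.67 (0.0129), Egln3 at 2.29 ± 0.66 (0.03) and Ddit4 at 1.77 ± 0.23 (0.00027), and 3 lower, among them Adm at -3.07 ± 0.32 (8.96e-05). Mycn was higher at 2.81 ± 0.77 (0.0233), and Slc16a10 at -2.10 ± 0.62 (0.0324, and 0.054 without day 1) and the FoxO and PPAR gene Angptl4 at -2.11 ± 0.58 (0.0233) were lower. Slc16a11 was called lower (0.0182) on 14 and 15 counts at day 0 against 0 and 1 at day 7. For the 9 genes the same contrast gave 1.79 ± 0.63 for Slc2a1, 1.66 ± 0.38 for Slc2a3 and 1.64 ± 0.43 for Pdk1, stated with no test. For members and pathway genes alike it averages the arms, which for some genes moved apart. Between days 0 and 7 Egln3 went from 14.9 to 126 TPM in OKS + DR and from 4.19 to 6.01 with FoxO6. Slc16a10 went from 2.32 to 2.01 TPM in OKS + DR and from 15.8 to 2.45 with FoxO6. Aldoc was higher at day 7 in both arms.

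Genes with the most similar profile were sought for the 6 of the 9 that had at least 20 counts in every library, by the root mean square (RMS) distance between centred log2(TPM + 1) profiles over the 10 libraries, among 9841 genes. Igfbp5 was nearest to Slc2a1 at 0.40, then Gm29084 at 0.46 and Noct at 0.50, against an RMS of 1.13 of the Slc2a1 profile itself. Id1 (0.60) and Bcat1 (0.64) were among the 3 nearest to Slc2a3, and Slc7a1 (0.23), Polr3g (0.24) and Lyar (0.25) were nearest to Ldha. For Slc16a1 they were Zfp518b (0.16), Mtmr10 (0.19) and Acly (0.20), for Ldhb Apool (0.16), Zfp672 (0.18) and Acads (0.18), and for Bsg Psmb6, Prelid1 and Adrm1, all at 0.07. Among the 9 themselves, Slc2a3 and Pdk1 were the closest pair at 0.41, and Slc2a1 and Pdk1 lay at 0.64.

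The high day 7 levels of Slc2a1, Slc2a3, Slc16a3 and Pdk1 in OKS + DR came with high levels of markers of other cell states. The 5 pluripotency markers summed to 5.55 TPM at day 0 and 287 at day 7 in OKS + DR, and to 0.71 and 49.2 TPM in OKS + FoxO6. The 4 epithelial markers went from 11.2 to 608 TPM in OKS + DR and from 3.14 to 132 TPM in OKS + FoxO6. No marker of either list was at 0 in every library of an arm. The 4 endothelial markers summed to between 20.9 and 54.8 TPM in OKS + DR and between 30.2 and 142 in OKS + FoxO6, carried by Tek (16.8 to 104) and Kdr (1.23 to 44.6), with Pecam1 at most 5.73 and Cdh5 at most 1.24. The 5 macrophage markers summed to between 7.95 and 56.3 over all libraries (Cd68 alone from 7.95 to 52.6, Ptprc, Adgre1 and Csf1r at most 0.60 and Aif1 at most 3.29), and the 4 skeletal muscle markers to between 2.11 and 237. Acta1 alone reached 236 TPM, in OKS + FoxO6 day 7, and in all other libraries the muscle markers summed to at most 25.7 TPM. Myog was at 0 in every library, Myod1 was at most 0.62 TPM and Ckm at most 4.21 TPM. The 4 neuronal markers lay between 59.3 and 157 TPM in OKS + DR and between 19.7 and 47.5 in OKS + FoxO6, carried by Tubb3 (1.85 to 143) and Syt1 (5.23 to 47.1), with Rbfox3 at most 1.39 and Snap25 at most 3.14. The adipocyte and red cell markers summed to at most 10.2 and 6.57 TPM. The part of these cell states in the levels of the 9 genes was not tested.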

How the data were processed

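RNA-seq was measured in 10 libraries, 1 per arm and day, grouped by their titles. For these libraries the authors ran RSEM with Bowtie2 against GENCODE M13 (mm10), and the deposited expected counts are RSEM estimates with no further normalization. The deposited TPM values are RSEM's own, normalized to effective length and library, and the effective lengths come from the same files. Per the labels the libraries were made with a VAHTS kit from Vazyme, while the methods name TruSeq. Expected counts were identical for the 48476 genes that the table of the series and the files per library share.

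Members and lists were chosen with earlier results of these data known. Expected counts were rounded and fitted with edgeR 4.0.16 (R 4.3.3, quasi-likelihood, TMM, filterByExpr, arm and day as factors, adjusted p under 0.05), and DESeq2 1.42.0 was an alternative. Single days were compared in log2(TPM + 1), with 2-fold as the mark, using Python 3.11.15, numpy 2.4.6, pandas 2.3.3, scipy 1.17.1 and matplotlib 3.10.9. On simulated data 195 of 200 genes changed 4-fold were recovered with 7 false calls among 11810 genes for the arm shift, and 176 of 200 with 9 among 11774 for day 7 against day 0. The simulation gave all genes 1 dispersion (0.0367), independent libraries and no other change with arm or day. It checks the code, and its error rates do not carry over to these time courses or to smaller shifts. Totals of 1208379 to 2225750 counts limit the precision of low genes. Genes named are the 9 members, the 12 largest pathway genes past the threshold in each fit, and the 3 nearest profiles of each member with enough counts, and some genes that the rule picks are not reported here. Gene coordinates were taken from GENCODE M21 (GRCm38). As alternatives, the fit was run with DESeq2's size factors, without the filter or the day term and without each day, and single days with a pseudocount of 0.1, with CPM (prior count of 2) and, added later, with the length trend removed. Days paired the arms by design, through the day term.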

Additional observations from a re-analysis of the deposited data

Results flagged for a closer look

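From day 0 to day 7 the difference in log2(TPM + 1) had opposite signs in the arms for 5 of the 9 genes and for 35.8% of the 15011 background genes, each measured from 1 library per arm and day, so the difference between the arms' changes was not tested. The median change of the background genes was itself 0.12 in OKS + DR and -0.067 in OKS + FoxO6. Slc16a3 changed by 2.41 in OKS + DR and by -2.24 in OKS + FoxO6, where day 7 held 1 count. Ldha changed by 0.29 in OKS + DR and by -0.92 in OKS + FoxO6, and Bsg by -0.39 in OKS + DR and by 0.051 in OKS + FoxO6. Slc2a1 changed by 3.40 in OKS + DR and by -0.10 in OKS + FoxO6, where the CPM ratio was 1.00 (0.826 to 1.21). Pdk1 changed by 2.34 in OKS + DR and by -0.43 in OKS + FoxO6, but there the CPM ratio of 1.51 (0.798 to 2.87) pointed up and its interval held 1.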

How the results depend on the processing

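For the arm shift, DESeq2 called 547 genes higher and 548 lower with FoxO6 (810 and 841 in edgeR), and of the pathway genes 5 higher and 8 lower. With no replicate block, that is without the day term that pairs the arms, 124 genes were higher and 38 lower, and 2 and 0 of the pathway genes. Leaving out each day in turn gave 370 to 837 genes higher and 335 to 841 lower, and 5 to 9 pathway genes higher and 4 to 11 lower. For day 7 against day 0, DESeq2 called 3 pathway genes lower and leaving out days 1, 3 or 5 gave 5 to 7 (8 with all). Without the filter on low counts or with DESeq2's size factors in edgeR these counts stayed within 1.5 times. Mycn (adjusted p = 0.16), Slc2a12 (0.164) and Pfkfb2 (0.0511) lost their arm shift in DESeq2, as did Slc16a11 (0.05), Mycn (0.11), Angptl4 (0.105) and Slc16a10 (0.148) their change with day.

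In CPM, 0 members instead of 1 were at least 2-fold higher with FoxO6 at day 0 and 2 instead of 1 lower, and 0 instead of 1 were lower at day 7 in OKS + DR. With the trend against transcript length removed, chosen after the data were seen, 2 were lower at day 0. That trend spanned 0.68 at day 0 and 0.99 at day 7 (log2, FoxO6 minus DR). For day 7 minus day 0 it spanned 0.80 in OKS + DR and 1.05 in OKS + FoxO6. The difference of Pdk4 at day 5, -1.46 in TPM, reversed to 0.45 in CPM, from 1 and 3 counts. Of 189 differences of members under other settings, 183 moved by no more than their counting interval. Among them are differences of Pdk4 and Slc16a3 with very wide intervals, such as 0.095 to 107 for the CPM ratio of Pdk4 at day 1. Staying inside such an interval says little. The cause of the changes under other settings was not tested. Depth limits Slc16a3, Pdk1 and Pdk4 most.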
